A study of Mus musculus with 12 samples.

Results

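The PYHIN family (also Ifi200 family) was followed through microglia, the resident macrophages of the brain, of mice after bone marrow transplantation. Its members here are 8 of the 24328 gene symbols counted: Aim2, Ifi203, Ifi204, Ifi205, Mnda, Mndal, Pyhin1 and AI607873, picked by symbol. The family was chosen because AI607873 rises in steps from control to syngeneic to allogeneic libraries, so values of AI607873 are given as a description, without a test. A further 4 family symbols in the table, Ifi202b, Pydc3, Pydc4 and BC094916, are given beside them. All 12 passed the filter on low counts, with 12695 genes tested in all. With only the control and syngeneic libraries Ifi205, Pydc3 and Pydc4 did not pass it, so these 3 were kept through their allogeneic values.

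All animals were wild-type BALB/c mice, whose age is not given in the sources used here, and microglia were sorted from brain by FACS. Control mice (n = 4) were untransplanted, and the labels record no irradiation for them. Syngeneic recipients (n = 4) were lethally irradiated and given 5000000 bone marrow cells with 300000 T cells of the same genetic background. Allogeneic recipients (n = 4) had the same irradiation and cell numbers from a genetically different donor, whose strain is not given in the sources used here. Both transplanted groups were killed at day 14, when graft-versus-host disease (GvHD, in which donor T cells damage the host) peaks per the labels. Host cells that survive irradiation and donor-derived cells were not told apart by the labels, and the sort markers were not given in the sources used here. Library totals were 32652208 to 46126118 counts.

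PYHIN proteins pair a pyrin domain, which binds other pyrin domains, with a HIN domain that binds DNA, although some members lack one of them. Aim2 is the family's inflammasome receptor: on meeting DNA in the cytosol it recruits the adaptor Pycard and activates caspase-1. Ifi204 and AI607873, whose current name is Ifi207, are linked to the STING route from cytosolic DNA to interferon. Most of the family is named for its induction by interferon, and the genes lie side by side on mouse chromosome 1.

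The stretch upstream of the genes is shown first. The 250 bases before each RefSeq gene start were searched on both strands for GAAANNGAAA, the core of the interferon-stimulated response element, and for TTCNNNGAA, the core of the gamma-activated site. Of the 8 members 7 had a promoter entry, and 5 of these 7 held the former (AI607873, Mnda, Mndal, Ifi203 and Ifi205), as did Pydc3 and Pydc4. In all 32851 promoters of the same length, each counted singly, the share was 2.98%. A member was counted as holding a match if any of its starts did, so the shares differ in unit. None of the 7 held TTCNNNGAA, against 7.02% of all promoters. Ifi204 and BC094916 had no entry and were not searched. Of the 3 further symbols searched, Ifi202b held TTCNNNGAA, and no promoter searched in the family held both. Aim2, Pyhin1 and Ifi202b had no GAAANNGAAA in this window. The following sequences from RefSeq (GRCm38.p6) are read 5′ to 3′ on the strand of the gene, with the match in capitals. They are those of the reference genome and were not read from the BALB/c mice measured here, whose letters may differ.
AI607873, chr1:173741826-173741865, minus strand: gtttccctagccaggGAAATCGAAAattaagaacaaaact
Mnda, chr1:173913059-173913098, minus strand: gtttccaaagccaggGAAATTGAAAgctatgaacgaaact
Ifi205, chr1:174031865-174031904, minus strand: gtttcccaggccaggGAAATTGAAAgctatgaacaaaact
Mndal, chr1:173880199-173880238, minus strand: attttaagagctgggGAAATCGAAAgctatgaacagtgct
Ifi203, chr1:173942503-173942542, minus strand: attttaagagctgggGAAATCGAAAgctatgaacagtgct
Pydc3, chr1:173673592-173673631, plus strand: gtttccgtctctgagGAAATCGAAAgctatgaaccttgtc
Pydc4, chr1:173599321-173599360, minus strand: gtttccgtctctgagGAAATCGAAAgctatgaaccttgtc
Ifi202b, chr1:173982969-173983007, minus strand: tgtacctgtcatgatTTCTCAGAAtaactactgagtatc
The windows of Mndal and Ifi203 are identical in letters, as are those of Pydc3 and Pydc4. The match starts 35 bases before the gene start in Ifi203 (the second of its starts), 36 in Mndal, 37 in Mnda, 41 in AI607873, 58 in Pydc3, 73 in Pydc4 and 134 in Ifi205. Mndal has a second start in RefSeq, with a match of its own on the other strand 54 bases before it. The letters that run on from the GAAANNGAAA matches shown above are mostly shared too. The string GAAANNGAAAGCTATGAAC, chosen after the sequences were seen, was in 7 of the 32851 promoters. These belong to Ifi203, Ifi205, Mnda, Mndal, Pydc3, Pydc4 and Ifi206, which is also a PYHIN gene and has no row of its own here. AI607873 has other letters after its match. Pyhin1, with no exact match to either core, and Ifi202b, without GAAANNGAAA, rose by 4.38 and 6.88 (log2) in allogeneic against control libraries. The search took exact matches only, so a stretch that differs by a letter was not counted. Whether the matches bear on any change was not tested. The 250 bases of Aim2, in which neither core was found either, are shown whole.
Aim2, chr1:173420354-173420603, plus strand: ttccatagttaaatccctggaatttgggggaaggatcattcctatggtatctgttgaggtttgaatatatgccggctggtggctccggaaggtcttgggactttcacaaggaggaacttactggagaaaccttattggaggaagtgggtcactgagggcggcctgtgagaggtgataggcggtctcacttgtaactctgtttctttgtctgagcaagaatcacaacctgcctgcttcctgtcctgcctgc
A match is a string of letters, and no binding was measured.

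**Figure D1:**
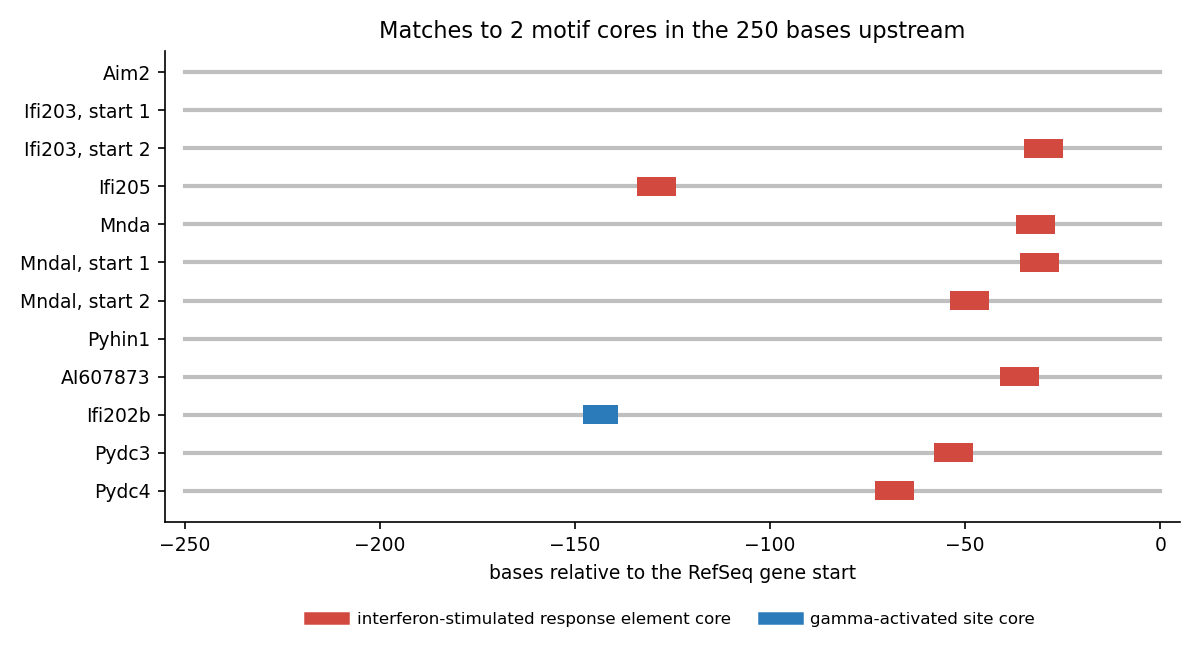
Positions of the interferon-stimulated response element core (red) and the gamma-activated site core (blue) in the 250 bases upstream of each RefSeq gene start, with bases before the start on the horizontal axis. The red match of Ifi205 starts 134 bases before the gene start, the other red ones 35 to 73 bases before it, and Aim2, Pyhin1 and the first start of Ifi203 have none.

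AI607873, the gene that led to the choice of the family, was nearly silent in control microglia. Its level in CPM, read counts scaled to a common library size, was 0.595, 0.557, 0.490 and 0.129 in the 4 control libraries. In syngeneic libraries it was 17.7, 20.9, 21.5 and 22.7 CPM, and in allogeneic libraries 112.4, 120.4, 151.3 and 87.9 CPM. No library of one group overlapped another. The log2 fold change was 5.53 (SE 0.27) from control to syngeneic and 2.51 (SE 0.20) from syngeneic to allogeneic libraries, the former being the larger on this scale.

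Allogeneic and syngeneic recipients were compared to ask what GvHD adds to irradiation and transplantation. Of the 7 members other than AI607873, Ifi204, Mnda, Pyhin1 and Ifi203 rose and none fell (edgeR's quasi-likelihood test, Benjamini-Hochberg adjusted p under 0.05), beside 10.1% of all tested genes called higher and 6.38% lower. For 6 of the 7 the allogeneic libraries all lay above the syngeneic ones, beside 12.6% of all tested genes. These 6 include Ifi205, which the filter kept through its allogeneic values. The median log2 fold change of the 7 was 2.74, which is the value of Ifi205 itself, beside -0.02 over all tested genes. Since the family was chosen on the steps between these groups, nothing is read from such counts or medians.

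Ifi204, a myeloid DNA sensor of the family, had the largest change among the tested members. Its syngeneic libraries held 11.3, 26.7, 11.7 and 16.3 CPM and its allogeneic libraries 193.0, 195.0, 231.3 and 182.4 CPM. The highest syngeneic library was far below the lowest allogeneic one. The log2 fold change was 3.60 (SE 0.30, edgeR adjusted p = 7.36e-07). Mnda, the gene now named Ifi211, stood at 3.34, 6.50, 4.24 and 4.62 CPM in syngeneic libraries. In allogeneic libraries it stood at 44.6, 42.2, 51.2 and 37.5 CPM. The groups did not overlap, and the log2 fold change was 3.23 (SE 0.23, edgeR adjusted p = 7.7e-09).

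Pyhin1, now named Ifi209, went from 5.37, 14.2, 11.2 and 8.56 CPM in syngeneic to 51.9, 47.5, 61.5 and 39.4 CPM in allogeneic libraries. All 4 allogeneic values lay above all 4 syngeneic ones, with a log2 fold change of 2.35 (SE 0.59, edgeR adjusted p = 0.015). Without syngeneic library 4 the call was lost (edgeR adjusted p = 0.051). Ifi203, an interferon-inducible member, was scarce, at 0.468, 0.775, 0.274 and 1.16 CPM in syngeneic and 5.07, 6.59, 9.81 and 3.18 CPM in allogeneic libraries. Its groups did not overlap either, and its log2 fold change was 3.20 (SE 0.71, edgeR adjusted p = 0.0034).

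Ifi205 and Mndal were also scarce. Ifi205, described as a regulator of Pycard transcription in macrophages, was at 0.401, 0.582, 0 and 0.960 CPM in syngeneic and 2.39, 3.58, 4.63 and 2.47 CPM in allogeneic libraries. Mndal was at 0.735, 0.969, 0.274 and 0.0758 CPM in syngeneic and 1.10, 4.80, 3.80 and 3.09 CPM in allogeneic libraries. For both genes all allogeneic libraries lay above all syngeneic ones, and neither passed the test. Ifi205 had a log2 fold change of 2.74 (SE 1.18, edgeR adjusted p = 0.131) and Mndal one of 2.63 (SE 1.05, edgeR adjusted p = 0.101). DESeq2 called both, with adjusted p = 0.039 for Ifi205 and 0.0238 for Mndal.

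Aim2 was the exception to the family's low starting level. It was abundant in every library, with 60.3, 56.2, 35.9 and 39.8 CPM in control, 58.5, 46.4, 44.8 and 44.5 CPM in syngeneic and 58.6, 59.9, 64.0 and 51.9 CPM in allogeneic libraries. The 3 groups overlapped. Allogeneic against syngeneic, its log2 fold change was 0.27 (SE 0.16, edgeR adjusted p = 0.278), with a 95% interval from -0.06 to 0.60. Syngeneic against control it was 0.02 (interval -0.31 to 0.34, edgeR adjusted p = 0.946), but -0.15 with library totals in place of TMM scaling and -0.33 with a GC and length offset. These intervals leave room for a modest change of Aim2 in either direction at the transplant step.

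The other family symbols gave 2 calls in this comparison, for Ifi202b and Pydc3. The filter kept Pydc3, like Pydc4, through its allogeneic values. Ifi202b, known as a DNA-binding protein without a pyrin domain that restrains Aim2, was the most abundant, at 35.1, 71.2, 49.98 and 45.6 CPM in syngeneic and 375.5, 355.4, 494.2 and 279.5 CPM in allogeneic libraries. These groups did not overlap, and the log2 fold change was 2.90 (SE 0.23, edgeR adjusted p = 2.55e-07). Pydc3 rose from a mean of 0.986 ± 0.939 to 6.71 ± 3.34 CPM (SD, n = 4), which is 2.76 on the log2 scale (SE 0.79, edgeR adjusted p = 0.02). That call was lost without allogeneic library 3 (2.43, edgeR adjusted p = 0.0907), and without syngeneic library 4 the value was 3.38. Pydc4, at 0.0831 ± 0.0877 against 1.29 ± 0.599 CPM, did not pass (log2 fold change 3.88, SE 1.34, edgeR adjusted p = 0.056), although 3 of 20 other fits called it, with DESeq2 at an adjusted p of 0.00854. BC094916, at 1.36 ± 1.22 against 6.97 ± 3.84 CPM, did not pass either (2.36, SE 0.86, edgeR adjusted p = 0.0709), and 6 of 21 other fits called it, with DESeq2 at an adjusted p of 0.0181. Its value was 3.22 without syngeneic library 2.

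**Figure D2:**
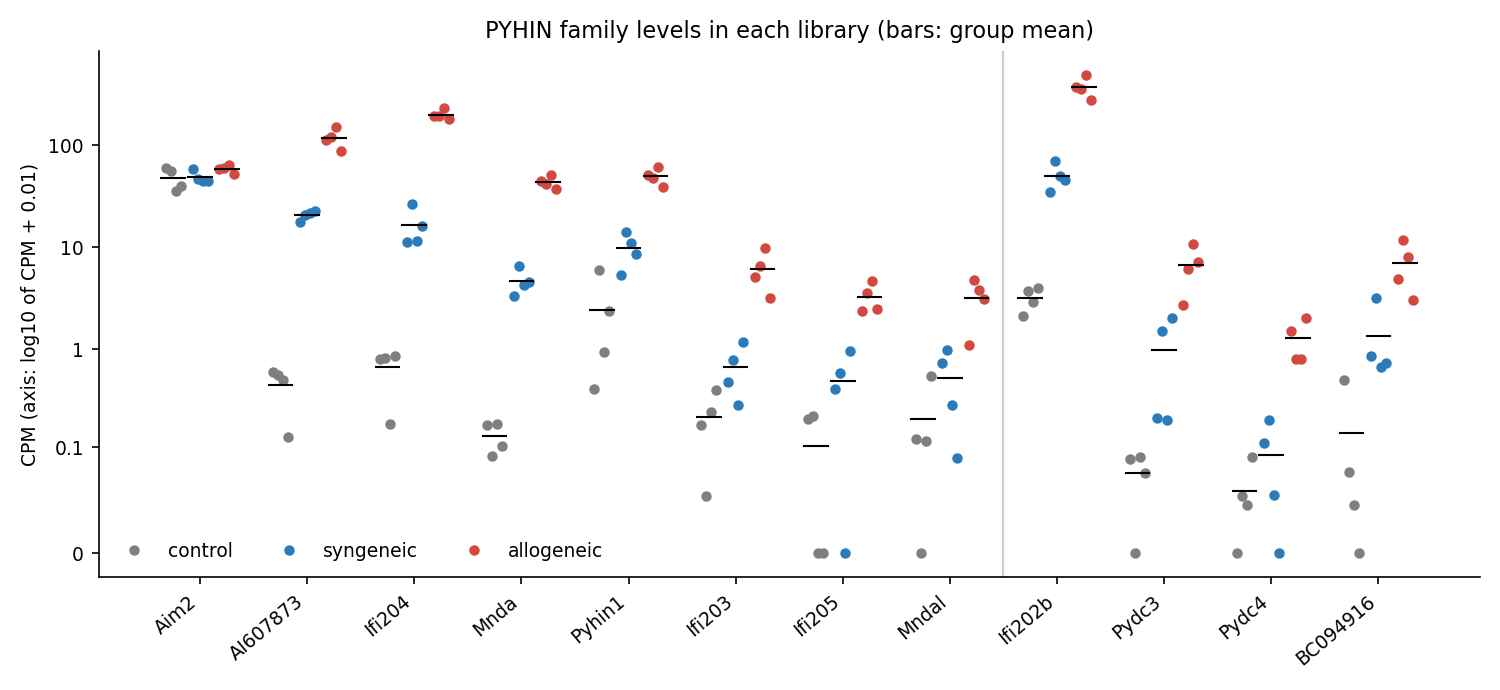
Levels of the 8 members (left of the line) and 4 further family symbols (right) in CPM, on a log10 axis of CPM + 0.01, with 1 point per library, 4 libraries per group and a bar at each group mean. Aim2 lies between 35.9 and 64.0 CPM in every library while the group means of the others climb from control (grey) through syngeneic (blue) to allogeneic (red).

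Syngeneic recipients were compared with untransplanted controls to show what irradiation and transplantation did without GvHD. Of the 7 tested members Ifi204, Mnda and Pyhin1 rose and none fell, beside 26.4% of all tested genes called higher and 25.6% lower. For 2 of them, Ifi204 and Mnda, the groups did not overlap, beside 24.6% of all tested genes. The median log2 fold change of the 7 was 2.03, beside -0.03 over all tested genes. Ifi204 was at 0.793, 0.823, 0.176 and 0.853 CPM in control libraries, all below its lowest syngeneic value of 11.3 CPM (a log2 change of 4.69, SE 0.37, edgeR adjusted p = 1.04e-07). Mnda was at 0.173, 0.0796, 0.176 and 0.103 CPM in control libraries, from 3 to 9 counts each, and likewise did not overlap (log2 change 5.07, SE 0.31, edgeR adjusted p = 2.13e-10).

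Pyhin1 varied widely within the control group, at 0.396, 6.03, 0.940 and 2.35 CPM. Control library 2 lay above the lowest syngeneic library, so the groups overlapped, and the log2 fold change of 2.03 (SE 0.60, edgeR adjusted p = 0.0134) became 3.01 without that library. Ifi203 stood at 0.173, 0.0265, 0.235 and 0.388 CPM in control libraries and missed the threshold (log2 change 1.69, SE 0.70, edgeR adjusted p = 0.0525). It passed in 5 of 21 other fits, DESeq2 among them (adjusted p = 0.0221). Ifi205 had 8, 8, 0 and 0 counts in control libraries (log2 change 2.23, SE 1.21, edgeR adjusted p = 0.134), and Mndal was at 0.124, 0, 0.118 and 0.543 CPM (a log2 change of 1.38, SE 1.03, edgeR adjusted p = 0.283). Both overlapped with the syngeneic group. The value of Mndal was 2.61 without control library 4 and 0.88 without syngeneic library 2, and that of Ifi205 ranged from 1.68 to 2.85 with 1 library left out, the highest without control library 2. None of these fits called either gene.

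Of the further symbols, Ifi202b, Pydc3 and BC094916 rose with transplantation, Pydc3 being one of the genes kept by the filter only through allogeneic libraries. Ifi202b was at 2.13, 3.74, 2.92 and 4.01 CPM in control libraries, with a log2 fold change of 3.98 (SE 0.26, edgeR adjusted p = 6.78e-09). Pydc3 had 9 counts in the whole control group against 167 in the syngeneic group, of 9, 70, 7 and 81 in its libraries (log2 change 4.16, SE 0.92, edgeR adjusted p = 0.000928). Limma-voom did not call it (adjusted p = 0.0716), and without syngeneic library 4 the value was 3.53. BC094916 had 23 control counts, 20 of them in 1 library, and 239 syngeneic counts (log2 change 3.24, SE 0.94, edgeR adjusted p = 0.00763). Its value was 5.66 without control library 1 and 2.38 without syngeneic library 2. Pydc4 had 5 control and 15 syngeneic counts and did not pass (edgeR adjusted p = 0.408).

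Across both steps, allogeneic against control, 6 of the 7 tested members rose and none fell, beside 28.2% of all tested genes called higher and 29.1% lower. The same 6 had no overlap between groups, beside 26.2% of all tested genes. Ifi205, kept by the filter through its allogeneic values, is among them. The median was 4.88, beside -0.07 over all tested genes. The comparison shares its libraries with the other 2, so it repeats them in part. Mnda had a log2 fold change of 8.30 (SE 0.32, edgeR adjusted p = 1.93e-13) and Ifi204 one of 8.29 (SE 0.40, edgeR adjusted p = 2.68e-10), and AI607873 stood at 8.04 (SE 0.28) untested. Ifi203 rose by 4.88 (SE 0.78), Ifi205 by 4.97 (SE 1.33), Mndal by 4.01 (SE 1.12) and Pyhin1 by 4.38 (SE 0.65) on the log2 scale, with edgeR adjusted p values of 2.96e-05 to 0.00519. Some of these sizes depended on single control libraries. Pyhin1 reached 5.35 and Ifi205 5.58 without control library 2, and Mndal 5.23 without control library 4. Aim2 did not pass at 0.29 (interval -0.04 to 0.62, edgeR adjusted p = 0.126), with adjusted p = 0.0348 without control library 1, and values of -0.08 with library totals and -0.18 with the GC and length offset. All 4 further symbols rose: Ifi202b by 6.88 (SE 0.28), Pydc3 by 6.92 (SE 1.0), BC094916 by 5.60 (SE 1.02; 8.02 without control library 1) and Pydc4 by 5.26 (SE 1.46; 6.11 without control library 4). Of these, Pydc3 and Pydc4 were kept by the filter through their allogeneic values.

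Whether the rise at transplantation and the rise with allogeneic cells differed in size was tested as a difference of log2 fold changes, the allogeneic step minus the transplant step. Mnda alone among the 7 tested members passed, beside 29.9% of all tested genes. Its allogeneic step was smaller by 1.85 (value -1.85, SE 0.44, edgeR adjusted p = 0.0036), although limma-voom did not call it (-1.77, adjusted p = 0.181). Ifi204 was at -1.09 and did not pass (SE 0.54, edgeR adjusted p = 0.153), and AI607873 stood at -3.02 (SE 0.37), untested. Ifi202b was at -1.09 (SE 0.38, edgeR adjusted p = 0.0435), and 8 of 20 other fits called it (adjusted p 0.0119 to 0.227). The call was lost without control library 1 or 3, without syngeneic library 2, 3 or 4, and without allogeneic library 1, 2 or 4, where its value was -0.66 to -1.20. Ifi203 (1.51, SE 1.21), Ifi205 (0.51, SE 2.12), Mndal (1.24, SE 1.80), Pyhin1 (0.32, SE 1.0) and Aim2 (0.26, SE 0.27) did not pass. With 1 library left out the value of Mndal ranged from 0.012 to 2.25 and that of Ifi203 from 0.999 to 2.29.

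**Figure D3:**
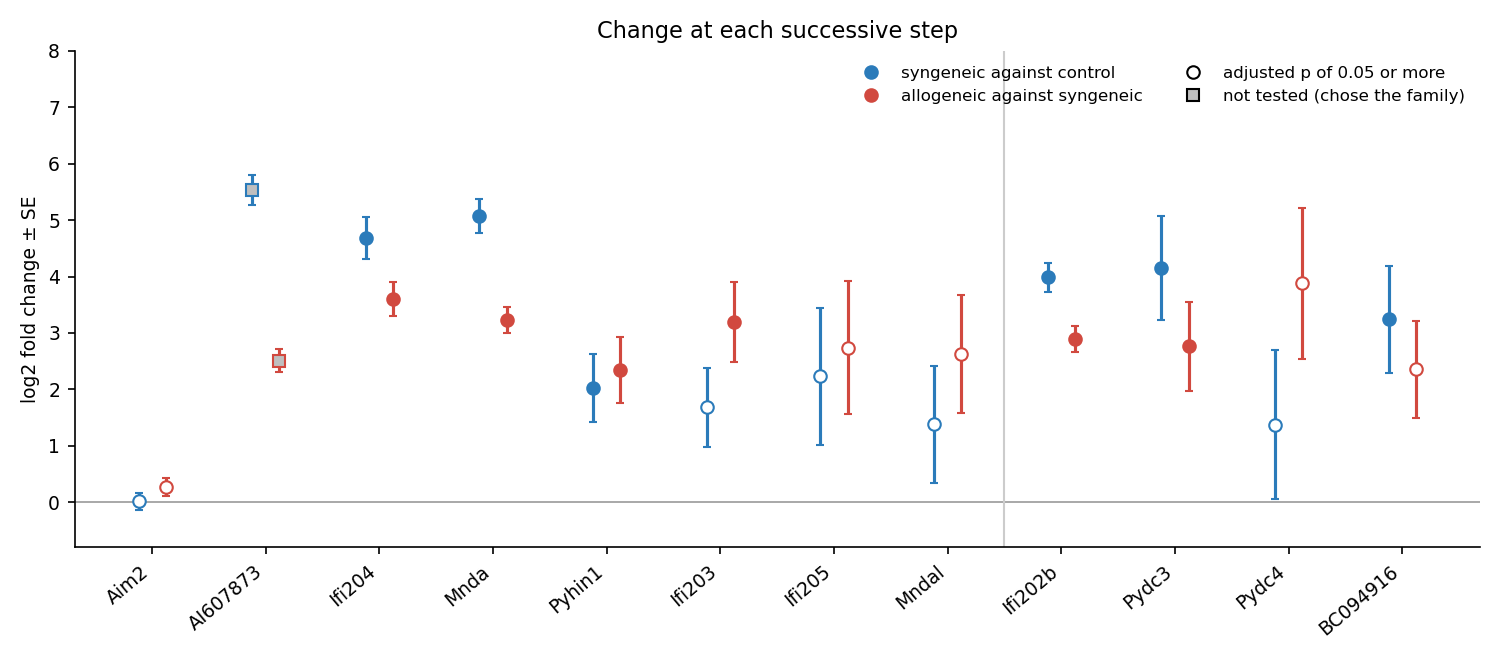
Log2 fold change ± SE of each gene at the transplant step (syngeneic against control, blue) and the allogeneic step (allogeneic against syngeneic, red). Open circles did not pass edgeR's test, and grey squares mark AI607873, which was not tested; Aim2 lies near 0 at both steps, and its transplant step is below 0 with library totals or the GC and length offset.

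Per kilobase of the longest coding transcript, which lets genes be compared with each other, the leading member changed between groups. Of the 11 family genes with a known transcript length (BC094916 has none), Aim2 held 83.3 ± 5.29% of the family's summed CPM per kilobase in control libraries (SD, n = 4). Its share was 26.6 ± 7.51% in syngeneic and 5.09 ± 0.523% in allogeneic libraries, while its own level per kilobase was 16.9 ± 4.23, 17.1 ± 2.35 and 20.6 ± 1.77. Ifi202b held 9.73 ± 3.37%, 44.0 ± 5.31% and 53.6 ± 2.64%, and Ifi204 1.38 ± 0.645%, 10.5 ± 2.5% and 21.5 ± 2.0%. AI607873 held 0.641 ± 0.311%, 9.27 ± 1.5% and 8.35 ± 0.451%. The summed level was 20.3 ± 4.47, 66.7 ± 13.0 and 411 ± 78.2 CPM per kilobase.

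In control libraries Aim2 stood first with no overlap with Ifi202b, and each later neighbour in the order overlapped the next. In syngeneic libraries the order was Ifi202b, Aim2, Ifi204, AI607873, Pyhin1 and Mnda, and the pairs Ifi204 with AI607873 and Pyhin1 with Mnda overlapped. The lowest Ifi202b value, 20.67 CPM per kilobase, was barely above the highest Aim2 value, 20.6. In syngeneic library 1 their shares were nearly equal, at 37.15% and 37.02%. In allogeneic libraries it was Ifi202b at 221.7, Ifi204 at 87.3, AI607873 at 34.5, Mnda at 24.6, Aim2 at 20.6 and Pyhin1 at 14.6 CPM per kilobase. There AI607873 overlapped Mnda, and Mnda overlapped Aim2. Pydc3, Ifi205, Ifi203, Mndal and Pydc4 followed at 2.24 CPM per kilobase or less.

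**Figure D4:**
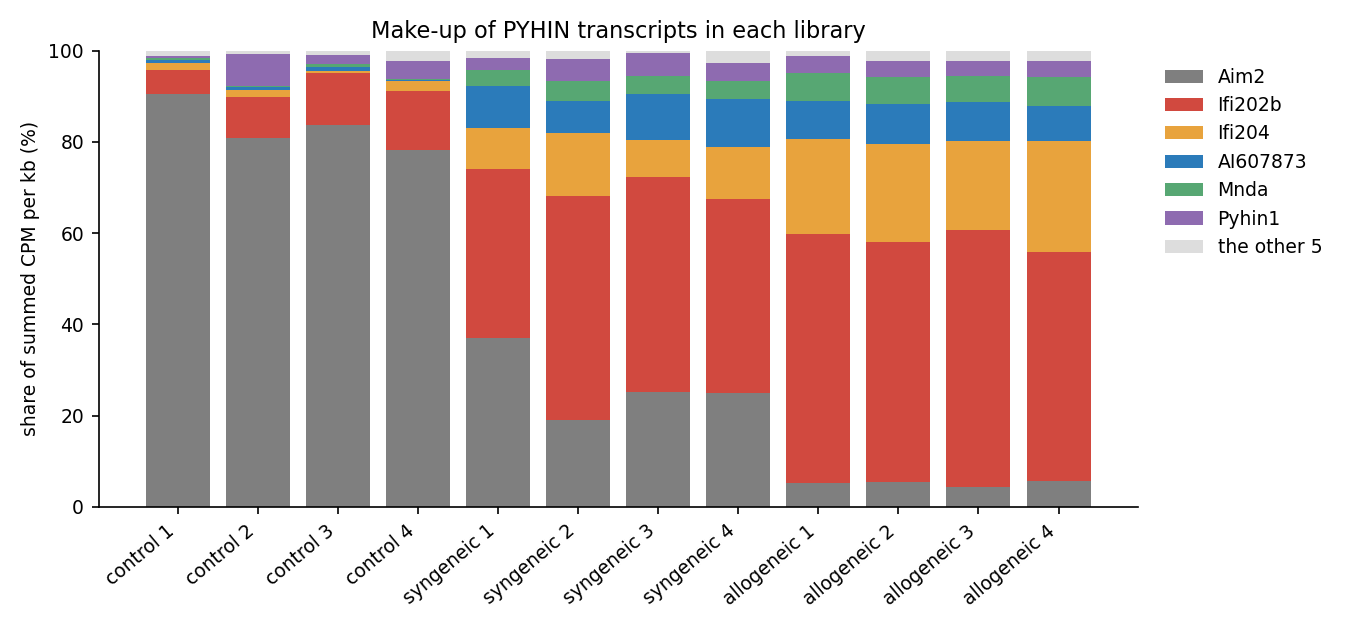
Share of each gene in the summed CPM per kilobase of 11 family genes, as stacked bars in percent, for each of the 12 libraries. Aim2 (grey) fills at least 78.1% of every control library and at most 5.58% of every allogeneic library, where Ifi202b (red) holds at least 50.3%.

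The members resemble each other in sequence, and how reads shared between them were counted is not given in the sources used here. Of the 50-base strings in the transcripts of Mnda (GENCODE M21), 72.8% occur in another gene, 44.7% in Ifi205. The share was 33.7% for Pyhin1, 20.0% for Ifi204, 19.6% for Mndal, 18.6% for Ifi205, 12.2% for Ifi203 and 7.29% for AI607873. It was 0.628% for Aim2 and 0% for Ifi202b. By these reference transcripts, reads of Mnda could therefore be split with other genes more than those of any other member. Transcript sequences of the BALB/c mice were not examined. AI607873 shares 2.68% of its strings with Ifi204, the gene with which it shares most.

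The genes next to the family on chromosome 1 had few reads or none. Of the 10 nearest rows on each side, 20 in all, none passed the filter and 13 had no count in any library. Most are olfactory receptor genes by symbol (Olfr), and rows with so few reads cannot show whether a change reaches beyond the family. The largest total over the 12 libraries was 56 counts.

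Single libraries stood high or low for many members at once. Allogeneic library 3 was the highest of its group for 7 of the 8 members, and allogeneic library 4 the lowest for 6. Syngeneic library 2 was the highest of its group for 4 members and the lowest for none. The summed level of 9 monocyte markers had its extremes in the same libraries. It was highest in syngeneic library 2 (33.8 CPM) and allogeneic library 3 (140.9 CPM) and lowest of its group in allogeneic library 4 (97.3 CPM). Other marker sums did so in part: the microglia sum was also highest of the allogeneic group in library 3 and lowest in library 4. The NK cell sum was highest in library 3 but lowest in library 1. The dendritic cell, B cell and choroid plexus sums were instead highest in allogeneic library 2. Those of T cells and border-associated macrophages were highest in library 1 and that of neutrophils in library 4. How these sums relate to the family's levels was not tested.

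Over groups that monocyte sum was 10.2 to 18.0 CPM in control, 16.7 to 33.8 in syngeneic and 97.3 to 140.9 in allogeneic libraries. Plac8 (77.9 CPM) and Fn1 (26.2 CPM) made up most of the allogeneic sum. Of 5 tested monocyte markers 2 rose and none fell in allogeneic against syngeneic libraries, beside 10.1% and 6.38% of all tested genes. With transplantation 2 rose and none fell, beside 26.4% and 25.6%. Against control 3 rose and 1 fell, beside 28.2% and 29.1%. Ccr2, a defining marker, was at 9.48, 8.01 and 4.0 CPM and Ly6c2 at 0.0381, 0.122 and 1.60 CPM. Cd177 was among the markers at 0 in both transplanted groups, and Chil3 and Vcan were at 0 in syngeneic libraries. The sum of 6 dendritic cell markers was 35.5 to 41.1, 16.8 to 24.0 and 77.4 to 138.3 CPM, and that of 6 NK cell markers 0 to 1.54, 0 to 1.97 and 21.6 to 36.3 CPM, with Ncr1, Gzma and Prf1 at 0 throughout. Itgax alone (108.4 CPM) carried most of the allogeneic dendritic cell sum, while Flt3 was at 15.4, 1.15 and 2.96 CPM in control, syngeneic and allogeneic libraries, and Klrk1 (27.1 CPM) carried most of the NK cell sum. Sums of 8 T cell markers stayed at or below 3.37 CPM in every library. The 6 markers of border-associated macrophages summed to 3.0 to 5.97, 22.8 to 32.1 and 21.1 to 29.96 CPM. The 5 choroid plexus markers summed to 12.9 to 96.7, 1091 to 1927 and 338.5 to 604.5 CPM, the 5 B cell markers to 19.1 to 32.8, 13.4 to 27.1 and 18.0 to 27.6 CPM, and the 6 neutrophil markers to 0.0531 to 28.1, 0.547 to 4.98 and 1.29 to 7.21 CPM. The 10 microglia markers summed to 47520 to 54250, 45670 to 48540 and 33170 to 34610 CPM, with none at 0. That sum joins opposite changes, since 6 of the 10 were called higher with transplantation and 4 lower. Among them P2ry12 went from 12080 to 17280 CPM, Csf1r from 11490 to 3524 CPM and Tmem119 from 3970 to 1342 CPM. For the allogeneic step the microglia calls were 0 higher and 7 lower, and for allogeneic against control 3 higher and 7 lower. The part of these other cells in the family's changes was not tested, and in bulk RNA more cells of a type and more RNA per cell cannot be told apart.

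Many genes of a list around the Aim2 inflammasome moved, not all of them its direct partners, whereas Aim2 itself passed in none of the 3 comparisons. Of 11 listed genes 9 rose and none fell between syngeneic and allogeneic libraries (median log2 fold change 0.78), beside 10.1% and 6.38% of all tested genes (median -0.02). With transplantation 8 rose and 2 fell (median 0.49), beside 26.4% and 25.6% of all tested genes (median -0.03). That count was 5 higher and 2 lower with library totals, and 4 higher and 2 lower with the GC and length offset. In allogeneic against control 9 rose and 2 fell (median 1.21), beside 28.2% and 29.1% (median -0.07). Il1b, the cytokine precursor that caspase-1 cleaves, was at 10.98, 29.9 and 208.7 CPM in control, syngeneic and allogeneic libraries (allogeneic over syngeneic log2 ratio 2.80, SE 0.14, edgeR adjusted p = 1.26e-10). The adaptor Pycard was at 93.9, 127.4 and 217.7 CPM and Casp1 at 65.9, 87.7 and 151.7 CPM, and both rose at each step. Gsdmd, the pore former, fell from 181.6 to 50.9 CPM with transplantation and was at 81.1 CPM in allogeneic libraries. Nlrp3, the sensor of another inflammasome, fell with transplantation as well (37.8 to 22.3 CPM).

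In the list of cytosolic DNA sensing through STING, 5 of 11 tested genes rose and none fell from syngeneic to allogeneic libraries (median 1.39). With transplantation 3 rose and 4 fell (median -0.21), and against control 6 rose and 4 fell (median 1.31). The shares of all tested genes given for the inflammasome list apply here too, and the share that rose with transplantation is close to that of all tested genes. Zbp1, a sensor of left-handed nucleic acid, was at 0.890, 14.96 and 164.6 CPM, and Irf7, the interferon-inducible amplifier of interferon genes, at 7.74, 30.8 and 201 CPM. The sensor gene Mb21d1 (cGAS) stood at 42.2, 29.8 and 32.1 CPM and Tmem173 (STING) at 774.3, 627.1 and 690.9 CPM, and both fell with transplantation. Irf3, the factor STING activates, fell from 74.2 to 22.8 CPM at that step.

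In the list of interferon signalling, 6 of 12 tested genes rose and 2 fell from syngeneic to allogeneic libraries (median 0.29). All tested genes gave 10.1% and 6.38%. With library totals 3 of the list rose and 3 fell. With transplantation 4 rose and 5 fell (median -0.05, and 0.02 with the GC and length offset), beside 26.4% and 25.6% of all tested genes. Against control 5 rose and 2 fell (median 0.17, and -0.20 with library totals), beside 28.2% and 29.1% of all tested genes. Irf1 was at 91.7, 54.8 and 268.4 CPM, lower after transplantation and higher with allogeneic cells.

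Genes with profiles most like a member were ranked by the root-mean-square distance of centred log2 CPM over the 12 libraries. The search covered 9221 genes, with the members and scarcer genes left out. Among the members left out, Mnda lay nearer than any gene found, at 0.595 from AI607873 and 0.668 from Ifi204. Nearest to AI607873 in the search were Cxcl10 at a distance of 0.64 log2 units, Ifitm3 at 0.81, Ccl5 at 0.90, Ifi202b at 0.91 and Ccl12 at 0.94. Cxcl10, a chemokine induced by interferon, was at 2.29 ± 0.431, 54.5 ± 21.7 and 327.4 ± 95.7 CPM (SD, n = 4). Nearest to Ifi204 in the search were Ifi202b (0.79), Ifitm3 (0.80), Cxcl10 (0.81), Ccl5 (0.83) and Cybb (0.85). Nearest to Aim2 were Psmd11, Mrpl55, Dnaja1, Dnajb11 and Ttc1, at 0.15 to 0.16.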

How the data were processed

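RNA was measured in 12 libraries, 4 per group. The submitters' processing notes name Trimmomatic 0.36, STAR 2.5.2b and the build mm9. What the authors deposited is a single table of whole-number counts per gene symbol. The counting tool, annotation, strand setting, handling of shared reads and any batch were not given in the sources used here. Since the labels speak of 4 mice per group but do not tie a library to a mouse, p-values measure the spread between libraries.

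CPM and fold changes were derived here with edgeR 4.0.16 (R 4.3.3). Library sizes were scaled by TMM, and filterByExpr used a minimum count of 10. There was 1 robust quasi-likelihood fit on the 12 libraries, adjusted by Benjamini-Hochberg over 12695 genes, with a call at 0.05. The method was tested on simulated data. Every member is named, pathway genes are up to 4 per list and comparison with the smallest p, and Nlrp3, Mb21d1, Tmem173 and the marker genes were named after their values were seen. Members and lists were chosen with earlier results of these data known. Some genes of the lists are counted but not reported by name here. Lengths and 50-base strings come from GENCODE M21 and promoters from RefSeq on GRCm38.p6, where 23551 symbols matched directly and 684 through a synonym. Other fits left out each library in turn, took the replicate number as a block, kept only the groups compared, or added a GC and length offset (loess span 0.3). Others scaled by RLE or by library totals, dropped the filter or set it at 1 CPM in 4 libraries, or used DESeq2 1.42.0 or limma-voom (limma 3.58.1).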

Additional observations from a re-analysis of the deposited data

Results flagged for a closer look

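In 4 of 36 combinations of a gene and a group, 1 library stood apart from the other 3 by Dixon's criterion, which chance alone meets in about 1 of 20 such groups. Aim2 was at 58.5 CPM in syngeneic library 1, against 44.5 to 46.4 CPM in the others. Ifi204 was at 0.176 CPM in control library 3, against 0.793 to 0.853 CPM. BC094916 was at 0.496 CPM in control library 1, against 0 to 0.0531 CPM, and at 3.19 CPM in syngeneic library 2, against 0.657 to 0.847 CPM.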

How the results depend on the processing

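With library totals in place of TMM the median log2 fold change of all tested genes moved to -0.22 between allogeneic and syngeneic, -0.20 between syngeneic and control, and -0.44 between allogeneic and control groups. The share of called genes that were higher went from 61.4% to 28.6%, 50.8% to 40.7% and 49.2% to 31.8%. Under that setting Aim2 turned to -0.15 (syngeneic against control) and -0.083 (allogeneic against control), and with the GC and length offset to -0.33 and -0.18. Limma-voom called 0 of the 7 tested members for a difference between the steps, against 1 by edgeR, and turned Pyhin1 there to -0.24. With 1 library left out, the count of members called was 3 to 4, 3 to 4 and 6 to 7 in the 3 comparisons and 1 for the steps. Over those fits Aim2 ranged from -0.10 to 0.14 in syngeneic against control, and the difference between the steps from -0.31 to 1.60 for Ifi205, -0.68 to 0.79 for Pyhin1 and -3.31 to 0.84 for BC094916; the cause was not tested. DESeq2, limma-voom and a fit of only the groups compared each called 6 of the 7 members in allogeneic against syngeneic, with Ifi205 and Mndal added.

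The replicate number as a block called 4, 3 and 6 members in the 3 comparisons and 1 for the steps, as without it, and changed no call of a member. Same-numbered libraries did not deviate together over all tested genes (correlation of deviations from group means -0.015 to 0.032 over 12 pairs). Such correlations cannot show a pairing that is weak or acts on few genes. The labels do not say what the numbers mark, so whether they pair the libraries is not known. Low counts limit every comparison with control of Ifi203, Ifi205, Mnda, Mndal, Pydc3, Pydc4 and BC094916, whose control libraries held 0 to 21 counts each.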
